A study of Mus musculus with 2 samples.

Results

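Rora and Rorb encode RAR-related orphan receptors, and they are 2 of the 33696 genes counted in single nuclei of the neonatal mouse cochlea. They were found by symbol in the gene list of the count matrices, as ENSMUSG00000032238 (Rora) and ENSMUSG00000036192 (Rorb). Both were chosen by their measured levels in the cell types and libraries described here, so those levels and ratios are a description and carry no test.

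Nuclear receptors are transcription factors whose DNA-binding domain reads short motifs and whose ligand-binding domain recruits coactivators or corepressors. The ROR proteins mostly bind DNA as monomers, at an AGGTCA core preceded by an A/T-rich stretch, and activate genes such as the clock gene Bmal1 (named Arntl here). The REV-ERB receptors, encoded by Nr1d1 and Nr1d2, bind the same element and repress. Rora is known above all from the staggerer mouse, in which cerebellar Purkinje cells fail to mature, and Rorb from the retina and the neocortex. In the organ of Corti, hair cells turn sound into electrical signals, pillar and Deiters cells support them, and Koelliker's organ is a transient epithelium on the inner side.

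The study made a single-nucleus library from each of 2 genotypes of mouse, with tissue of many animals pooled in each. The group called cOE here carried Lgr5EGFP-CreER/+ together with Serpine2loxp/loxp, which the series calls conditional overexpression of the secreted protease inhibitor Serpine2, and used 20 cochleae. The control carried Serpine2loxp/loxp without the Cre, and used 19 cochleae. All mice of both groups received tamoxifen at postnatal day 1 and were sampled at postnatal day 7, and the dissected sheet holding the organ of Corti was frozen before nuclei were taken. In the cOE mice the Cre comes from the Lgr5 locus, so it acts in Lgr5-positive supporting cells and progenitors, while other cells keep the floxed allele; what the floxed allele contains is not given in the sources used here. The EGFP-CreER allele itself was also present only in the cOE group. With 1 library per genotype there is no replicate check and no test between genotypes: every interval below is a 95% interval of counting error only, which covers no difference between animals, dissections or libraries.

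The cOE library held 12014 barcodes and 40429121 UMIs (unique molecular identifiers, each 1 captured RNA), and the control 9820 barcodes and 31158971 UMIs. After filtering and removal of likely doublets, 9777 and 8250 nuclei were kept, with medians of 2401 and 2247 UMIs. The libraries shared 27 barcode sequences, 15 of them among kept nuclei. Serpine2 itself stood at 86.0 CPM (UMIs of the gene per 1000000 UMIs of all genes) in the kept cOE nuclei and at 88.9 in the control, and in the supporting cell gate at 159 and 148 (log2 ratio of cOE over control 0.11, interval -0.17 to 0.39), so the target gene's counts did not separate the genotypes beyond counting error. A shallow group of 72 cOE and 740 control nuclei (cluster 11, median 863.5 UMIs) stood apart between the libraries and matched no marker list.

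Nuclei were sorted into gates by marker genes, and each gate is named for the list its nuclei resemble. The tissue is labelled as hair cells and supporting cells, but the mesenchyme gate was the fullest, with 2804 cOE and 2603 control nuclei. The hair cell gate held 406 and 325 nuclei, the gate of pillar and Deiters supporting cells 328 and 172, and the Koelliker gate 530 and 282. Hair cell nuclei carried all 9 of their own markers in both libraries, summing to 3506 CPM (cOE) and 2827 CPM (control), and 9 supporting cell markers summed there to 816 and 744 CPM, with 1 of them at 0 in the control. Within supporting cell nuclei the 9 hair cell markers summed to 97.1 and 112 CPM with none at 0, against 3131 and 3011 CPM for their own list. Koelliker markers summed to 1820 and 1403 CPM in the same nuclei. In the Koelliker gate the supporting cell list summed to 3823 and 3939 CPM, against 4591 and 4795 CPM for its own list. The gates of supporting cells and Koelliker's organ are therefore not cleanly parted by these markers. The part of RNA from neighbouring cell types in the levels below was not tested. The same nuclei were also grouped into 25 clusters without the counts of Rora and Rorb. A level in pooled tissue cannot tell more nuclei of a type from more RNA per nucleus, and levels are therefore given within a gate or cluster as CPM, where the sum runs over that class and library.

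Rora lies on chromosome 9 from 68561068 to 69295528 (GRCm39, plus strand) and spans 734.461 kb of exons and introns. Of 5 annotated genes that overlap it, 1 (Gm15511) is counted in these files, and reads of the shared stretch cannot be assigned between them from counts alone. Rorb lies on chromosome 19 from 18907969 to 19088585 (minus strand), spans 180.617 kb and overlaps no other annotated gene. Because the genes differ this much in length, and nuclear RNA holds introns, their levels are compared with each other only per kb of span.

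The stretches just upstream of the annotated starts of both genes show the letters around which transcripts begin, and are printed from RefSeq (GRCm38.p6), on the gene's strand, 250 bases each, with CpG dinucleotides in capitals. The Rora stretch is chr9:68653536-68653785 (plus), and the Rorb stretches are chr19:19111197-19111446 and chr19:19001118-19001367 (minus).
Rora promoter 1: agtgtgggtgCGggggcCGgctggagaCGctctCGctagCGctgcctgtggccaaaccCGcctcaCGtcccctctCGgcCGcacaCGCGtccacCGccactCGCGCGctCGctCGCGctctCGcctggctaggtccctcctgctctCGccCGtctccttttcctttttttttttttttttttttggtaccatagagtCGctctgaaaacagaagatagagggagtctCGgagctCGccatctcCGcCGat
Rorb promoter 1: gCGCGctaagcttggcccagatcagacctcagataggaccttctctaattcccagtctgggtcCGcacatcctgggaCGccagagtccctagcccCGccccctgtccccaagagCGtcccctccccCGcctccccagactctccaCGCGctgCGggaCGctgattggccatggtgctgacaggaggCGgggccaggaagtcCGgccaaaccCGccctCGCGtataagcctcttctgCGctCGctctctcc
Rorb promoter 2: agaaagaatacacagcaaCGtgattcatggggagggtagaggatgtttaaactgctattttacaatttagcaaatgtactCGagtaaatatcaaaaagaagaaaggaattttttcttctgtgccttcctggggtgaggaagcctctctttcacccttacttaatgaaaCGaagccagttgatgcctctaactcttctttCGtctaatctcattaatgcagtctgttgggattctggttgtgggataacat
The Rora stretch holds 26 CpG dinucleotides at 61.2% GC, more than 90.4% of 32851 mouse promoter stretches of this length, whose median is 6. The upstream Rorb start has 18 at 66.0% GC, more than 78.3% of promoters, while the downstream Rorb start has 4 at 39.2% GC, more than 37.8%. Counts from the 3' end of transcripts do not tell which Rorb start was used.

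Rora was high in nearly every cell type, and Rorb was concentrated in the sensory epithelium. Over all kept nuclei Rora had 105263 UMIs in the cOE library and 94094 in the control, and ranked 7th by CPM in both, among 26723 and 26569 genes with a UMI. Rorb had 9443 and 5307 UMIs and ranked 493rd and 910th. Within hair cells Rorb ranked 71st and 142nd, and within mesenchyme 6219th and 7873rd.

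**Figure D1:**
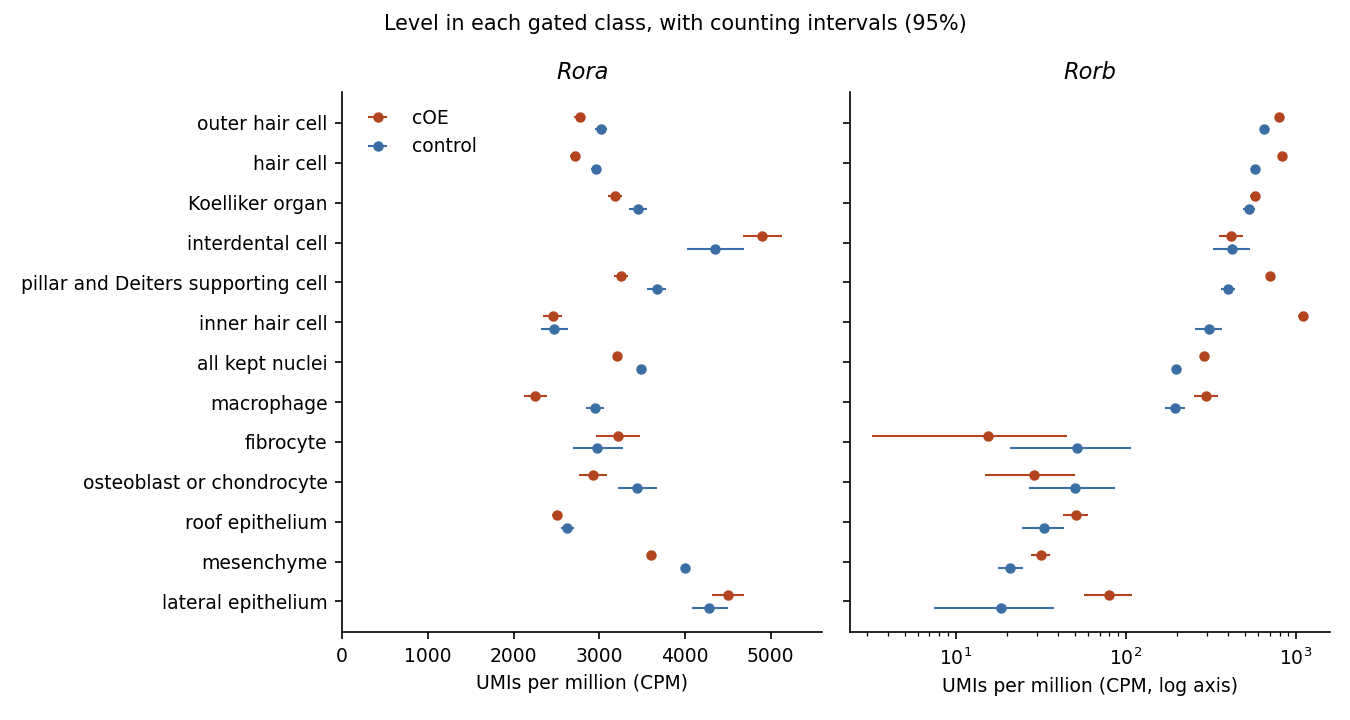
Level of Rora (left, linear axis from 0) and Rorb (right, log axis) in CPM for all kept nuclei, 10 gates and the inner and outer hair cell subsets; red points are the cOE library, blue points the control, and bars are 95% counting intervals. Rora stays within 2.17-fold across the 10 gates in the cOE library, whereas Rorb runs from 15.5 to 828 CPM. The macrophage gate, the lowest for Rora in cOE, is mixed, and its cOE nuclei inside cluster 19 had 543 CPM of Rora.

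Across the 10 gates with at least 50 nuclei in each library, Rora differed by 2.17-fold from the lowest to the highest in the cOE library. In the control the range was 1.65-fold. These ranges take the macrophage gate as a whole, which was mixed. Its nuclei inside the macrophage cluster (cluster 19) had 543 and 338 CPM of Rora. Among gates, Rora was highest in interdental cells, which secrete the tectorial membrane's proteins. That gate had 4897 CPM (4671 to 5131) in cOE and 4344 CPM (4024 to 4682) in control nuclei. The lateral epithelium followed at 4499 and 4283 CPM, and its intervals overlapped those of interdental cells in both libraries. Mesenchyme came next at 3608 and 3999 CPM, clear of its neighbours on either side in both libraries. Supporting cells stood at 3249.9 and 3669 CPM, and Koelliker's organ at 3186 and 3454 CPM.

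Rora in hair cells, at 2711 CPM (10533 UMIs) in the cOE library and 2959 CPM (9729 UMIs) in the other, was lower than in the mesenchyme, by 0.41 and 0.43 on the log2 scale. Neighbours from supporting cells down to macrophages overlapped each in turn in the control library, in the order supporting cells, Koelliker's organ, osteoblasts or chondrocytes (3440.0 CPM), fibrocytes (2975 CPM), hair cells and macrophages (2947 CPM). In the cOE library fibrocytes (3213 CPM) overlapped both supporting cells and Koelliker's organ, and osteoblasts or chondrocytes (2924 CPM) overlapped hair cells. Roof epithelium was low in both, at 2508 and 2628 CPM. No gate or cluster reached 2-fold above all other nuclei in both libraries for Rora.

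The clusters showed a wider range of Rora than the gates, 12.2-fold in cOE and 15.7-fold in control nuclei. Cluster 1, led by Trdn, Rspo2 and Otoa, had 5342 and 4831 CPM, and cluster 12, a mesenchymal cluster led by Col6a6, Unc13c and Aldh1a2, had 4999 and 5746 CPM. That mesenchymal cluster alone held 19239 and 19969 Rora UMIs. At the other end stood the macrophage cluster (cluster 19) at 519 and 366 CPM and the neuronal cluster (cluster 18) at 667 and 1054 CPM, the latter on 45 and 9 nuclei. Cluster 21, a small cluster named mesenchyme from 3 markers, had 437 and 836 CPM on 19 and 18 nuclei (25 and 72 UMIs), the lowest of any cluster in cOE. Low Rora was also seen in cluster 9, named mesenchyme from 5 markers, at 1205 and 1342 CPM on 634 and 577 nuclei. Against all other nuclei cluster 9 was at log2 -1.44 in cOE and -1.41 in control. The unnamed cluster 24 had 1027 and 1353 CPM on 12 and 15 nuclei.

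The macrophage gate was mixed for both receptors. Its 85 cOE and 111 control nuclei inside cluster 19 had 543 and 338 CPM of Rora and 11.9 and 20.8 CPM of Rorb (2 and 4 UMIs). Its 23 and 51 nuclei outside that cluster were deep, with medians of 11069 and 12855 UMIs, and had 3148 and 3517 CPM of Rora and 447 and 232 CPM of Rorb. Cluster 19, whose low levels were seen before it was picked, serves below as the cell type low in both genes.

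Rorb was highest in hair cells among the gates, at 828 CPM (799 to 857) in the cOE library and 572 CPM (546 to 598) in the control. Supporting cells had 706 CPM (668 to 746) and 399 CPM (363 to 437). Koelliker's organ had 572 CPM (538 to 607) and 529 CPM (488 to 572), and interdental cells 415 and 419.8 CPM. In the cOE library these 4 epithelial gates were all separate from each other in that order. In the control, Koelliker's organ overlapped both hair cells and interdental cells, and supporting cells came after interdental cells, with overlapping intervals. The interdental gate was mixed. Its Koelliker markers summed to 2910 and 3110 CPM, against 1925 and 2163 CPM for its own list. Of its nuclei, 99 lay in cluster 1, which had 169 and 21.6 CPM of Rorb, and 52 in the Koelliker cluster 3, which had 925 and 912 CPM. The median nucleus of the interdental gate held 0 Rorb UMIs in both libraries.

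Outside the sensory epithelium Rorb was low in both libraries. Roof epithelium had 50.7 and 32.9 CPM, mesenchyme 31.6 and 21.0 CPM (220 and 140 UMIs), and the lateral epithelium 79.7 and 18.5 CPM on 39 and 7 UMIs. Fibrocytes had 3 and 7 UMIs and osteoblasts or chondrocytes 12 and 13. Set against all other kept nuclei, Rorb was at least 2-fold higher in both libraries in hair cells (log2 1.94 in cOE, 1.98 in control), a mark that 8.48% of 16431 genes also met. The same held for supporting cells (1.42 and 1.09; 3.44% of genes) and Koelliker's organ (1.08 and 1.54; 3.49% of genes). Interdental cells were 0.53 and 1.11 above the rest and missed that mark in the cOE library, a mark 3.44% of genes met in that gate.

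**Figure D2:**
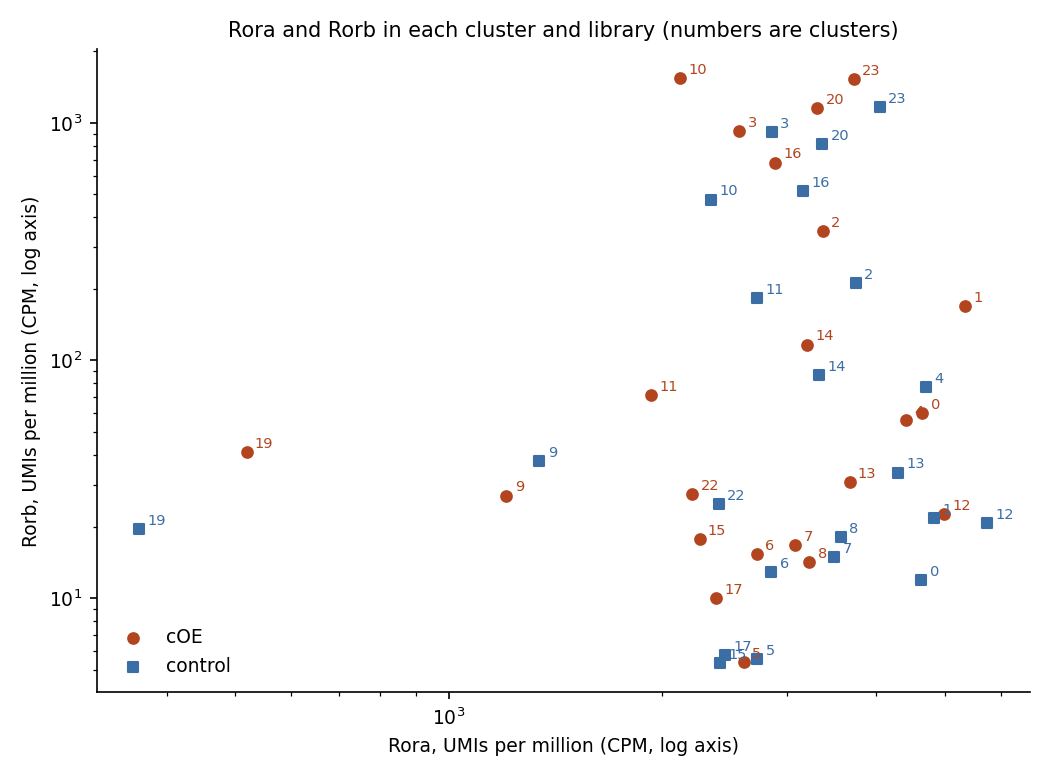
Rora against Rorb level, both in CPM on log axes, for each cluster with at least 20 nuclei in each library and at least 1 Rorb UMI; red circles are the cOE library, blue squares the control, and numbers name clusters. Clusters 3, 10, 16, 20 and 23, picked by their Rorb level, stand above the rest in Rorb. Their Rora levels lie among those of the other clusters.

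Among clusters, Rorb was concentrated in 5 epithelial groups. Clusters 3, 10, 16, 20 and 23 held 82.7% of all Rorb UMIs in the cOE library and 80.5% in the control. They held 15.4% and 9.60% of the nuclei and 27.8% and 24.96% of all UMIs. These clusters were picked by their Rorb level. Cluster 2, which was not picked, had 349 and 212 CPM. It held 10.1% and 10.0% of Rorb UMIs and 8.30% and 9.28% of all UMIs. Cluster 23, led by Pla2g3, Prdm12, Gria4, Ano1 and Otol1 and not named because its markers were split between supporting cells and Koelliker's organ, had 1531 CPM (1392 to 1679) and 1164 CPM (989 to 1361). Cluster 10, a hair cell cluster led by Nalf1, Rims2 and Tafa3, had 1536 CPM in the cOE library and 475 CPM in the control. Cluster 20, a supporting cell cluster with Prox1 and Lgr5 among its leading genes, had 1153 and 811 CPM.

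Cluster 3, the Koelliker cluster led by Ano1, Pla2r1 and Galr1, had 925 CPM (2769 UMIs) and 912 CPM (1469 UMIs). Cluster 16, the larger hair cell cluster, with the outer hair cell motor gene Slc26a5 and the transduction channel gene Tmc1 among its leading genes, had 680.5 and 518 CPM. All 5 were at least 2-fold above the other nuclei in both libraries. Since they were picked by their Rorb level, this is a description and no support. That mark was met by 4.6% of genes for cluster 3, 7.74% for cluster 10, 7.65% for cluster 16, 4.58% for cluster 20 and 5.01% for cluster 23. Mesenchymal cluster 12, by contrast, had 22.6 and 20.7 CPM of Rorb.

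Per kb of span, the order of the receptors differed between the epithelial classes. Hair cells had 3.69 CPM per kb of Rora and 4.58 of Rorb in the cOE library, and 4.03 and 3.16 in the control. Cluster 23 had more Rorb than Rora per kb in both libraries, 8.47 against 5.07 in cOE and 6.45 against 5.51 in control, and so did cluster 3, with 5.12 against 3.49 and 5.05 against 3.88. The supporting cell gate had more Rora in both, 4.42 against 3.91 and 4.995 against 2.21. The supporting cell cluster 20 differed from its gate. It had more Rorb than Rora in cOE, 6.38 against 4.50, and close levels in control, 4.49 against 4.58. In the mesenchyme Rora stood at 4.91 and 5.44 CPM per kb and Rorb at 0.17 and 0.12.

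To set shares of nuclei with at least 1 UMI side by side at equal depth, each nucleus was thinned to 1000 UMIs, leaving out 436 cOE and 844 control nuclei that were shallower. Rora was then seen in 88.4% (87.7 to 89.0) of cOE and 89.5% (88.7 to 90.2) of control nuclei, against 93.6% and 92.9% before thinning. In the macrophage cluster 19, where the gene is near its lowest, the thinned share was 17.0% (18 of 106 nuclei) and 15.4% (21 of 136), with 22.5% and 19.0% before thinning at median depths of 1531.5 and 1515 UMIs and 14 and 22 nuclei left out.

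**Figure D3:**
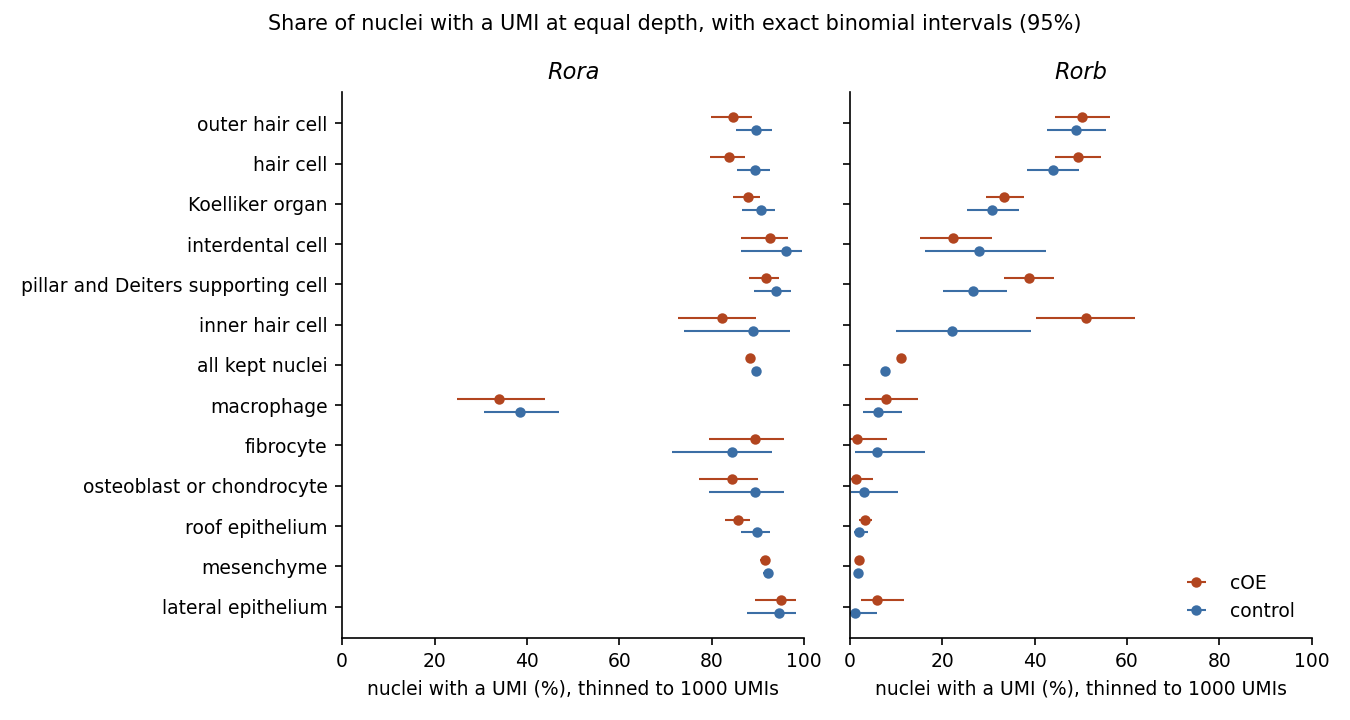
Share of nuclei, in percent, with at least 1 UMI of Rora or Rorb after thinning each nucleus to 1000 UMIs, by gate and library; bars are exact 95% binomial intervals. Rora is seen in most nuclei of every gate but the macrophage gate, and Rorb in 49.5% of cOE and 43.9% of control hair cell nuclei but in 2.10% and 1.82% of mesenchyme.

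Rorb was seen in 49.5% (44.5 to 54.5) of thinned cOE hair cell nuclei and 43.9% (38.4 to 49.5) of control ones, and before thinning in 85.0% and 80.6% at median depths of 6034.5 and 6555 UMIs, with 2 and 4 nuclei left out. Supporting cells had 38.8% (126 of 325) and 26.7% (44 of 165), against 61.0% and 55.8% unthinned at 3989.5 and 4410.5 UMIs, with 3 and 7 left out. Cluster 19, taken as a low cell type, had 1.89% (2 of 106) and 2.21% (3 of 136) thinned and 2.50% and 3.16% unthinned. Its thinned intervals were wide, 0.23 to 6.65 and 0.46 to 6.31. It was not the lowest, as cluster 5 had 0.33% and 0.73% thinned. Mesenchyme had 2.10% and 1.82% thinned (5.21% and 3.96% unthinned, medians of 2254.5 and 2302 UMIs, 87 and 127 left out). These shares lay within the intervals of cluster 19, which are too wide to place mesenchyme at a background.

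Koelliker's organ had Rorb in 33.5% (29.4 to 37.7) and 30.8% (25.4 to 36.6) of thinned nuclei, against 52.6% and 52.5% unthinned at 2943.5 and 3193.5 UMIs, with 7 and 6 left out. In cluster 23 the share was 75% (60 of 80) and 73.5% (25 of 34), so Rorb was detectable at 1000 UMIs in most nuclei of that cluster in both libraries. At full depth the median hair cell nucleus held 13 Rora UMIs in cOE and 17 in control, and 5 and 4 of Rorb. The median supporting cell nucleus held 11 and 13.5 of Rora, and 2 and 1 of Rorb. The richest hair cell nucleus gave 1.80% and 3.35% of that gate's Rorb UMIs, so no nucleus dominated the sum.

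Both receptors were often seen in the same nucleus. Of thinned hair cell nuclei with a Rorb UMI, 90% of 200 in the cOE library and 91.5% of 141 in the control also had a Rora UMI, against 77.5% and 87.8% of those without Rorb. In supporting cells these shares were 94.4% against 89.9% in cOE, and 88.6% against 95.9% in control, so the direction differed between the libraries. Over the 10 gates the log levels of the receptors showed no linear relation (Pearson r -0.02 in cOE and -0.04 in control, over 10 classes that share their libraries).

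Between the libraries, Rorb was higher and Rora slightly lower in cOE nuclei. Over all kept nuclei Rorb stood at 288 CPM (282 to 294) in cOE and 196 CPM (191 to 202) in control, a log2 ratio of 0.55 (0.50 to 0.60), and passed the fold of 0.5 on the log2 scale that 4.53% of 16431 genes passed upward and 5.06% downward. Its interval lay above 0, as did that of 26.2% of genes. Rora stood at 3209 and 3482 CPM, a log2 ratio of -0.12 (-0.13 to -0.10), whose interval lay below 0 as did that of 22.2% of genes. The median gene was at 0.01. The 354 genes that, like Rora, span at least 400 kb had a median of 0.00.

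The Rorb ratio over all nuclei was smaller when the make-up of the libraries, taken as shares of UMIs, was held equal. The 5 clusters rich in Rorb, picked by that level, held 27.8% of all UMIs in cOE and 24.96% in control. Among them, cluster 16 held less in cOE, 14.9% against 16.8%. With every cluster weighted as in the control library the log2 ratio of Rorb was 0.35, and weighted as in the cOE library 0.39. Weighted by the gates as in the control it was 0.50. Rora moved little, to -0.15 and -0.13 with clusters weighted as in the control and the cOE library.

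**Figure D4:**
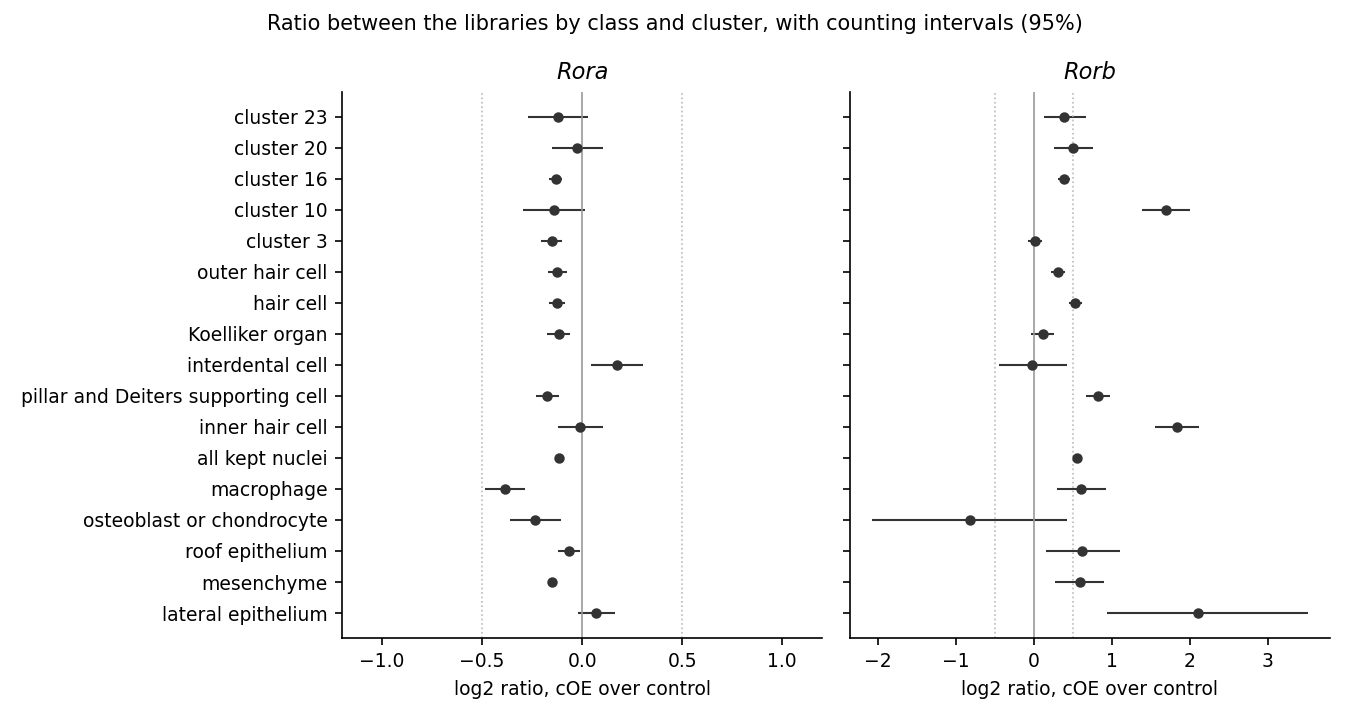
Log2 ratio of cOE over control for Rora and Rorb by gate, hair cell subset and the clusters 3, 10, 16, 20 and 23 (fibrocytes are not drawn); bars are 95% counting intervals with 1 library per group, and dotted lines mark 0.5 in each direction. Rorb is above the upper line in hair cells (0.53), supporting cells (0.82) and inner hair cells (1.83) and near 0 in cluster 3 (0.02), while Rora stays between the lines in every gate.

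Rorb in hair cells was 828 CPM on 3216 UMIs in cOE and 572 CPM on 1879 UMIs in control, a log2 ratio of 0.53 (0.45 to 0.62), past the fold that 4.4% of 9724 genes passed upward; thinned to 1000 UMIs it was 0.47, short of the fold. The share of genes with an interval above 0 in this gate was 14%. In supporting cells, 706 CPM on 1272 UMIs stood against 399 CPM on 451 UMIs, a ratio of 0.82 (0.67 to 0.98), where 5.28% of 5968 genes passed and 10.6% had an interval above 0. Without nuclei above 10000 UMIs these ratios were 0.52 and 0.67. Koelliker's organ, where Rorb was about as abundant, differed by 0.11 with an interval that included 0 (-0.03 to 0.26), and the Koelliker cluster 3 by 0.02 (-0.07 to 0.11). Interdental cells were at -0.02 (-0.45 to 0.42). Whether the gates differ from each other in this ratio was not tested.

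Supporting cell nuclei in clusters 20 and 2 gave unlike levels with the same direction. The 61 cOE and 34 control nuclei in cluster 20 had 1168 and 799 CPM of Rorb (log2 ratio 0.55, 0.30 to 0.80). The 82 and 53 nuclei in the deep cluster 2 had 663 and 333 CPM (0.99, 0.71 to 1.28). Cluster 2 was mixed, with 80 roof epithelium and 46 macrophage gate nuclei beside 135 of the supporting cell gate. The part of this mixing in the ratio was not tested. Cluster 14 held few UMIs of Rorb in this gate, 20 and 13, with a ratio of 0.40 (-0.67 to 1.53). The gate's nuclei in clusters 6 and 7 held 0 Rorb UMIs in both libraries. Its 45 nuclei in cluster 3 and 41 in cluster 23 were not compared between libraries here. The Lgr5 transcript, from the locus that drives the Cre in cOE mice, stood in the gate at 377 and 371 CPM (0.02, -0.16 to 0.20). Lgr5 is also among the markers used to sort nuclei into this gate. The gate therefore cannot show whether Lgr5 differs between the genotypes. Lgr5 counts at sampling also do not show in which cells the Cre had acted after tamoxifen, and the control carried no Cre.

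The hair cell difference was unequal between inner and outer hair cells. Inner hair cells, the primary sensory receptors, had 1098 CPM of Rorb (1026 to 1175; 856 UMIs in 91 nuclei) in cOE and 308 CPM (255 to 369; 118 UMIs in 36 nuclei) in control, a log2 ratio of 1.83 (1.56 to 2.12). Here 12.2% of 2690 genes passed the fold upward. Outer hair cells, the amplifiers, had 798 and 644 CPM (2172 and 1641 UMIs in 280 and 251 nuclei), a ratio of 0.31 (0.22 to 0.40) that did not pass the fold, as 4.12% of 8451 genes did. In the control library Rorb was thus lower in the inner than in the outer hair cell subset. In the cOE library it was higher, with no overlap of the counting intervals either way. That reversal did not hold within cluster 16, where inner hair cell nuclei had 449 and 165 CPM and outer ones 799 and 641 CPM. The inner subset was spread unequally over clusters, with 65 of 91 cOE and 18 of 36 control nuclei in cluster 10. The part of this spread in the ratio was not tested.

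The inner hair cell ratio was seen in both clusters that hold these nuclei. The 65 cOE and 18 control nuclei in cluster 10 had 1585 and 516 CPM (1.62, 1.28 to 1.97), and the 24 and 16 in cluster 16 had 449 and 165 CPM (1.45, 0.92 to 2.01). After thinning, 51.1% (46 of 90) of cOE and 22.2% (8 of 36) of control inner hair cell nuclei had a Rorb UMI, with exact intervals of 40.3 to 61.8 and 10.1 to 39.2; before thinning the shares were 78.0% and 66.7% at medians of 6649 and 6944 UMIs, with 1 and 0 left out. Outer hair cells had a Rorb UMI in 50.4% and 49.0% of thinned nuclei (88.6% and 87.6% unthinned, medians of 5887 and 6772 UMIs, none left out), so the share in inner hair cells was below that of outer hair cells in the control and level with it in cOE. A single control nucleus gave 15.3% of the control's Rorb UMIs in this subset. Without nuclei above 10000 UMIs the levels were 1519 and 548 CPM and the ratio 1.47 (1.10 to 1.86), on 73 and 22 nuclei.

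The markers of inner hair cell identity differed in the same subset. Its 6 inner hair cell markers summed to 2545 and 1639 CPM in cOE and control nuclei, and the 7 outer hair cell markers to 452 and 342 CPM, with none at 0 in either library. In the outer hair cell subset the outer list summed to 1584 and 1472 CPM and the inner list to 744 and 701 CPM. The part of this difference in the Rorb ratio was not tested. Rora over all inner hair cell nuclei was level, at 2457 and 2474 CPM (-0.01, -0.12 to 0.10). Without nuclei above 10000 UMIs Rora was lower in cOE, at 2010 and 2318 CPM (-0.21, -0.40 to -0.007). Within clusters 10 and 16 its ratios were 0.05 (-0.14 to 0.24) and 0.08 (-0.07 to 0.22).

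Outside the sensory epithelium the Rorb ratios rested on few UMIs. Of 7 gates with at least 100 Rorb UMIs over both libraries, 6 were higher in cOE and 1 lower, 5 had intervals above 0, and 5 passed the fold: hair cells, supporting cells, mesenchyme, roof epithelium and macrophages. Mesenchyme was at 0.59 (0.28 to 0.91), where 3.5% of genes passed and 14.8% had an interval above 0. Its share of thinned nuclei with a Rorb UMI was low, within the wide intervals of cluster 19. The mesenchyme ratio fell short of the fold with each nucleus weighted equally (0.24) and thinned to 1000 UMIs (0.20). Roof epithelium was at 0.62 (0.15 to 1.11; 4.88% of genes passed and 10.8% had an interval above 0), and without nuclei above 10000 UMIs at 0.08 (28.1 and 26.5 CPM). With each nucleus weighted equally the roof ratio turned to -0.48 (27.6 and 38.4 CPM), and 1 control nucleus held 23.1% of that gate's control Rorb UMIs. The macrophage gate was at 0.61 (0.30 to 0.92; 11.2% of genes passed and 14.8% had an interval above 0), without those nuclei at 0.33 (-0.36 to 1.01), and thinned at 0.26; 1 cOE nucleus held 31.7% of its Rorb UMIs there.

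Among 10 clusters with at least 100 Rorb UMIs, 9 were higher in cOE and 1 lower. Past the fold were clusters 1, 2, 10 and 20 upward, where 12.6%, 5.9%, 12.6% and 5.95% of genes passed, and cluster 11 downward, where 27% passed. The unnamed cluster 1, led by Trdn, Rspo2 and Otoa, had 169 CPM on 163 UMIs in cOE and 21.6 CPM on 5 UMIs in control, a ratio of 2.97 with the wide interval 1.71 to 4.61; 1 nucleus gave 4 of the 5 control UMIs, and without nuclei above 10000 UMIs the ratio was 1.63. Cluster 20 was at 0.51, and at 0.44 with equal weights, 0.46 thinned and 0.498 without its top nuclei. The shallow cluster 11 had 71.4 CPM on 5 UMIs against 183 CPM on 148 UMIs (-1.36, -3.00 to -0.10). Cluster 16 was higher by 0.39 (0.32 to 0.47) and cluster 23 by 0.39 (0.13 to 0.67), short of the fold.

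Rora differed by little and mostly downward. Of the 10 gates, 7 were lower and 3 higher in cOE, with 7 intervals below 0 and 1 above, and none passed the fold of 0.5. Hair cells were at -0.13 (-0.17 to -0.09), where 12.4% of genes had an interval below 0, and supporting cells at -0.17 (-0.23 to -0.12), where 10.2% had. Mesenchyme was at -0.15 (-0.17 to -0.12; 11.9% of genes) on 25153 and 26687 UMIs. Koelliker's organ was at -0.12 (8.93% of genes below 0), roof epithelium at -0.07 (8.6%), osteoblasts or chondrocytes at -0.23 (12.7%) and the mixed macrophage gate at -0.39 (13.4%). The Koelliker value stood beside a median of -0.10 for 240 genes of long span in that gate; in supporting cells 267 such genes had a median of -0.04 and in hair cells 314 had -0.01.

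Interdental cells were the gate in which the Rora interval lay above 0, at 4897 CPM on 1760 UMIs against 4344 CPM on 683 UMIs (0.17, 0.04 to 0.30). In that gate 11.7% of genes had an interval above 0. Cluster 1, with interdental markers among its leading genes, was also higher, by 0.15 (0.05 to 0.24). It shares 99 nuclei with the interdental gate, so these values are not independent. The mesenchymal cluster 12, which carries most Rora UMIs of any cluster, was lower by 0.20 on the log2 scale (interval -0.23 to -0.17). Over 23 clusters with at least 100 Rora UMIs, 20 were lower and 3 higher, and past the fold were cluster 19 upward (519 and 366 CPM, 0.50; 8.96% of genes passed) and cluster 18 downward (-0.66; 10.6% of genes passed). Single nuclei carried much of both: 1 nucleus gave 44.2% of the cOE and 1 gave 30.9% of the control Rora UMIs in cluster 19, and in cluster 18 1 nucleus gave 32.9% in cOE. With the richest nucleus left out on both sides the ratios were 0.20 and -0.25, short of the fold. Thinned to 1000 UMIs they changed sign, slightly to -0.043 in cluster 19 and to 2.38 in cluster 18. The cluster 18 value set 578 against 111 CPM with only 9 control nuclei and is imprecise.

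**Figure D5:**
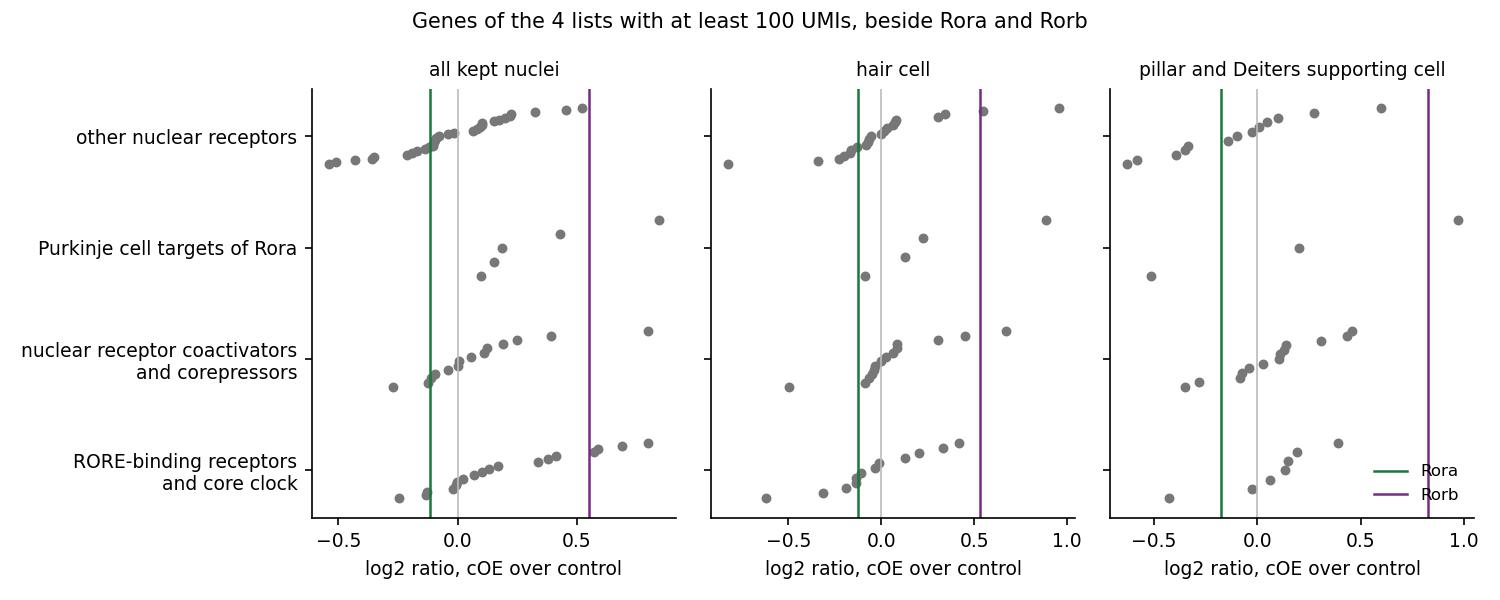
Log2 ratio of cOE over control for the genes of 4 lists (clock and RORE-binding receptors, coregulators, Purkinje cell targets of Rora, other nuclear receptors) in all kept nuclei, hair cells and supporting cells; each point is a gene with at least 100 UMIs, and lines mark Rora and Rorb. Most list genes lie between -0.5 and 0.5, with list medians from -0.10 to 0.20.

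Genes that act with the receptors were examined from 4 lists. AGGTCA, the core of the ROR and REV-ERB response element, was searched on both strands in the 250 bases upstream of each start. It occurs in 4607 of 32851 promoters (14%), and the longer TAGGTCA, which contains it, in 734 (2.23%). Neither string occurs in the Rora and Rorb stretches printed above. Of the clock list 14 of 18 genes had a promoter in the table, and 4 of 18 promoters (22.2%) held AGGTCA. Among the Purkinje cell list 3 of 7 genes were matched, and 4 of their 6 promoters held it, 3 of these belonging to Pcp2 and 2 of those sharing the same bases. For other nuclear receptors 29 of 32 genes were matched and 8 of 48 promoters (16.7%) held it, and for coregulators 9 of 14 genes and 0 of 11 promoters.

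From the clock and Purkinje cell lists, 5 windows are shown as examples, with AGGTCA in capitals and up to 10 bases on either side, written so that AGGTCA reads forward (GRCm38.p6). They lie at chr14:18239168-18239193 for Nr1d2, chr5:76303606-76303631 for Clock, chr11:69098802-69098827 for Per1, chr13:52981040-52981061 for Nfil3 and chr16:96467432-96467457 for Pcp4. The Nr1d2 match is on the gene's strand and the others on the opposite strand.
Nr1d2: ttggaagaagAGGTCAggaccgctcg
Clock: gtcatctgtcAGGTCAgaggccaaag
Per1: gcccccactgAGGTCAgggctgtgtc
Nfil3: gttagtAGGTCAgttccgagcg
Pcp4: atggctgatcAGGTCAcaatagcaag
A match describes letters only and is not a measured binding site.

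Of the genes that hold these windows, Nr1d2, a REV-ERB repressor, stood at 78.0 CPM in cOE and 60.0 CPM in control over all nuclei (log2 ratio 0.38, 0.29 to 0.47). Clock, the partner of Bmal1, stood at 172 and 164 CPM (0.07, 0.01 to 0.13). Per1, a repressor of the clock, was at 29.9 and 32.7 CPM (-0.13), and Nfil3, a basic leucine zipper repressor, at 6.80 and 6.81 CPM (0.00). Pcp4, a calmodulin-binding protein of Purkinje cells, was at 121 and 89.8 CPM (0.43, 0.36 to 0.50). Of the other nuclear receptors described below, Rxra holds AGGTCA at 2 places in its window and Thrb at 1.

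All 18 clock genes could be counted over all nuclei, and 4 passed the fold upward (4.53% of all genes did) and none downward (5.06% of all genes), with a median log2 ratio of 0.12 against 0.01 for all genes. Those 4 were Nr1d1, the other REV-ERB repressor (6.49 and 3.74 CPM, 0.80), the transcriptional repressors Bhlhe41 (14.9 and 9.25 CPM, 0.69) and Bhlhe40 (15.6 and 10.4 CPM, 0.59), and the clock repressor Ciart (7.20 and 4.85 CPM, 0.57). Arntl (Bmal1) was at 77.8 and 72.4 CPM (0.10), and Hlf, a PAR-type leucine zipper factor, at 186 and 221 CPM (-0.25, -0.30 to -0.19). The hour at which each pool was collected is not given in the sources used here.

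Within hair cells 12 clock genes could be counted, and Hlf alone passed the fold, downward (87.0 and 134 CPM, -0.62; 4.91% of genes passed downward), with a list median of -0.07. In supporting cells 7 could be counted and none passed, with a median of 0.13. Of 14 coregulators, Ppargc1a, a metabolic coactivator of nuclear receptors, passed upward over all nuclei (42.2 and 24.3 CPM, 0.80) and in hair cells (28.6 and 17.9 CPM, 0.67), where 4.53% and 4.4% of genes did. Ncor1, a corepressor, was at 383 and 382 CPM (0.00). The coregulator medians were 0.03 over all nuclei, 0.01 in hair cells and 0.10 in supporting cells, where none of 13 passed.

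The Purkinje cell list had 5 of 7 genes counted over all nuclei, and Car8, which binds the calcium channel Itpr1, passed upward (6.98 and 3.89 CPM, 0.85), beside 4.53% of all genes. Itpr1 itself, the inositol trisphosphate receptor, was at 503 and 442 CPM (0.19), and Calb1, a calcium-binding protein, at 122 and 110 CPM (0.15). In hair cells 4 were counted and the glutamate transporter gene Slc1a6 passed upward (18.5 and 10.0 CPM, 0.88), beside 4.4% of genes. Supporting cells had Pcp4 past the fold upward (72.7 and 37.1 CPM, 0.97, on 131 and 42 UMIs; 5.28% of genes passed upward) and Itpr1 downward (538 and 768 CPM, -0.51; 5.36% of genes passed downward), of 3 counted.

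Of 32 other nuclear receptors 31 were counted over all nuclei, with 1 past the fold upward, 2 downward and a median of -0.08, where 4.53% of all genes passed upward and 5.06% downward. They were Nr4a2 (19.8 and 13.8 CPM, 0.52), an immediate-early orphan receptor, and downward the retinoid X receptor Rxra (12.0 and 17.4 CPM, -0.54) and the estrogen receptor Esr1 (2.84 and 4.03 CPM, -0.51). The retinoic acid receptor Rarb was at 245 and 315 CPM (-0.36, -0.40 to -0.32) and passed downward in hair cells (84.9 and 151 CPM, -0.83) and in supporting cells (117 and 181 CPM, -0.63). Thrb, the thyroid hormone receptor needed for hearing, was at 580 and 544 CPM (0.09). In hair cells, of 21 counted, Nr4a2 (0.95) and the liver X receptor Nr1h2 (0.55, -0.01 to 1.12) passed upward, beside 4.4% of genes upward and 4.91% downward. In supporting cells, of 13 counted, Esrrg (0.60) passed upward and Nr3c1, the glucocorticoid receptor, downward (-0.58), beside 5.28% and 5.36% of genes.

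Genes whose levels ran most alike with each receptor across the 10 gates were named by the lower of the Pearson r values of the libraries, among 5700 genes with at least 1000 UMIs in each, leaving out gate markers. For Rorb these were Nrcam, a neuronal cell adhesion gene (r 0.953 in both libraries), Gm38604 (0.945 in cOE and 0.958 in control), the carboxypeptidase gene Cpa6 (0.918 and 0.922), Tmem132d (0.909 and 0.918) and the anoctamin gene Ano3 (0.909 and 0.907). Nrcam had 311 and 256 CPM in hair cells, 341 and 325 in supporting cells, and 28.1 and 24.9 in mesenchyme. For Rora the likeness was looser: the immune checkpoint gene Tigit (0.813 and 0.752), the sialyltransferase gene St3gal1 (0.749 and 0.774), Itih5 (0.887 and 0.747), the helix-loop-helix inhibitor Id1 (0.804 and 0.739) and Cfl1, which encodes cofilin (0.737 and 0.764). Itih5 was at 1038 and 394 CPM in interdental cells, 939 and 1078 in the lateral epithelium, and 177 and 167 in hair cells. These correlations are over 10 classes that share 1 library and its depth each, and describe likeness of level only.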

How the data were processed

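The authors deposited, per the file headers and the series design text, raw UMI counts per gene and barcode from 10x 3' libraries made with Cell Ranger 8.0.1. Alignment used STAR (version not given) per the submitters' processing notes, which name mm10 where the design text names GRCm39. No coordinates come with the counts; positions are from GENCODE (GRCm39, 33185 of 33696 IDs placed) and promoters from RefSeq (GRCm38.p6).

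Nuclei with at least 500 genes and at most 5% mitochondrial UMIs were kept. Scrublet in scanpy 1.11.5 marked 0% at its own threshold, so the top 0.8% per 1000 barcodes by score was removed, 1040 cOE and 703 control nuclei. Gates needed at least 3 distinct markers (2 for lists under 6 genes) and a score 1.25 times the next; this rule was set after seeing the data, judged on agreement with the Leiden clusters and not on Rora or Rorb. Clusters used 3000 variable genes, 50 components, 15 neighbours and resolution 1, without Rora and Rorb. CPM carry exact Poisson intervals, ratios exact conditional intervals and shares Clopper-Pearson intervals, all at 95%; UMIs remove PCR copies, and intervals cover counting error only. The ratio and its interval were tested on simulated Poisson counts, which hold no further spread between nuclei or libraries. The other steps were not tested by simulation.

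With 1 library per group no test was made. A gene counted as past the fold at an absolute log2 ratio of at least 0.5 with at least 100 UMIs over both libraries, or in a class at 2-fold over all other nuclei. Genes are named by rule: Rora, Rorb, the list genes, and the 5 genes most alike by the lower Pearson r of log2(CPM + 10); clusters are described by leading genes. A list gene counted in the list totals is not reported here. The members and lists were chosen with earlier results of these data known. Alternatives covered filters, doublets, gating, clusters, thinning, weighting and TMM factors (edgeR 4.0.16, R 4.3.3); numpy 2.4.6, scipy 1.17.1 and matplotlib 3.10.9 ran in Python 3.11.15. Proteins were not analysed here.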

Additional observations from a re-analysis of the deposited data

Results flagged for a closer look

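Rora differed in opposite directions between cell types, with counting intervals clear of 0 on both sides. In interdental cells Rora was higher in cOE nuclei, with a log2 ratio of 0.17. The ratio was -0.13 in hair cells, -0.12 in the outer hair cell subset of those nuclei, -0.17 in supporting cells, -0.12 in Koelliker's organ, -0.067 in roof epithelium, -0.15 in mesenchyme, -0.23 in osteoblasts or chondrocytes and -0.39 in the macrophage gate. The interdental gate had 1760 and 683 Rora UMIs from 124 and 50 nuclei. The difference between these cell types was not tested, since each genotype has 1 library, and none of the values passed the fold of 0.5.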

How the results depend on the processing

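No paired analysis was possible because each genotype had 1 library. No ratio over all nuclei, in hair cells or in supporting cells, and no ratio of hair cells over mesenchyme, reversed under the alternatives run; of these alternative values 85 stayed within their counting error and 31 moved. The hair cell and supporting cell ratios of Rorb stayed at 0.47 to 0.58 and 0.67 to 0.89. Over all nuclei Rorb was 0.62 with each nucleus weighted equally, 0.69 thinned to 1000 UMIs, 0.71 without nuclei above 10000 UMIs, and, at the control's make-up, 0.35 by clusters and 0.50 by gates. Rora over all nuclei was -0.15 thinned, -0.13 without deep nuclei and -0.15 at the control's cluster make-up; in hair cells it was -0.20 thinned and -0.21 without deep nuclei, and in supporting cells -0.086 thinned. Rora in hair cells against mesenchyme (log2 -0.41 in cOE, -0.43 in control) was -0.56 and -0.57 with clusters, -0.55 and -0.55 with equal weights, -0.60 and -0.57 thinned, -0.73 and -0.67 without deep nuclei, -0.49 and -0.51 with TMM factors, -0.46 in cOE with at least 1000 genes and -0.49 in control with 1 more marker. Rorb in the same contrast (4.71 and 4.77) was 5.02 and 4.41 with clusters, 5.38 and 5.11 thinned, 5.27 and 5.30 without deep nuclei, and in cOE 5.24 with equal weights and 4.19 with no doublets removed. The cause of these moves was not tested. The inner hair cell ratio of Rorb was 2.38 thinned. Elsewhere ratios with intervals clear of 0 reversed: Rorb in roof epithelium (0.62) to -0.48 with equal weights, and, thinned, Rora in cluster 19 (0.50) to -0.043 and in cluster 18 (-0.66) to 2.38. The thinned cluster 18 value set 578 against 111 CPM with only 9 control nuclei and is imprecise. Some ratios with intervals that included 0 also changed sign, among them Rorb to -0.02 in Koelliker's organ and -0.11 in cluster 3 with equal weights, and to 0.15 in interdental cells thinned. Requiring no marker of any other list left 0 hair cell and 0 supporting cell nuclei and gave no value there. With no minimum of 100 UMIs the share of genes past the fold was 10.9% upward and 13.9% downward over all nuclei, 13.4% and 16.7% in hair cells, and 15.8% and 21.6% in supporting cells. The alternatives without deep nuclei, at fixed make-up and for these other gates and clusters were chosen after seeing the data. Fibrocytes had 3 and 7 Rorb UMIs, so their ratio is imprecise (interval -4.32 to 0.40).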
